A study of Mus musculus with 12 samples.

Results

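The p53 axis and the CDK inhibitors were followed through 12 single cultured cardiac progenitor cells (CPCs) by 10 genes of the 21729 in the count table. The genes were listed by name: Trp53, its inhibitor Mdm2, the p53 targets Ccng1, Cdkn1a and Phlda3, and the inhibitors Cdkn1b, Cdkn2a, Cdkn2b, Cdkn2c and Cdkn2d. Their levels were set against the summed level of Mki67, Top2a and Cdk1, proliferation genes that are not among the 10. All 10 members had a count in at least 1 cell, and 8 of 10 were counted in all 12 cells. Cells of this kind were sorted as c-Kit+ and lineage-negative from the non-myocyte fraction of hearts of 12-week-old FVB mice labelled female. They had grown as adherent cells in a medium with serum, leukemia inhibitory factor, basic fibroblast growth factor and epidermal growth factor, to passage 5, and were picked by hand for full-length cDNA with the Smart-Seq v4 kit. Cells from a pair of hearts were pooled before plating, so no cell can be tied to an animal. The 12 cells form 1 group and count as 1 sample. No test across cells was made, no p-value is given, and each comparison below describes these 12 libraries.

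The p53 protein is a transcription factor that is kept low by Mdm2, a ubiquitin ligase whose own gene it switches on. After DNA damage or other stress p53 accumulates and drives genes that halt the cell cycle, repair DNA or start cell death. CDK inhibitors bind the kinases that push a cell through the cycle. The Cip/Kip proteins p21 (Cdkn1a) and p27 (Cdkn1b) bind cyclin-kinase complexes, whereas the INK4 proteins p16 (from Cdkn2a), p15 (Cdkn2b), p18 (Cdkn2c) and p19 (Cdkn2d) bind Cdk4 and Cdk6. The Cdkn2a gene also gives p19Arf, which holds back Mdm2. In fibroblast cultures Cdkn2a and Cdkn2b are known to accumulate with time in culture.

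The bases before a transcription start show where sequences of the p53 type lie among the members, and 4 of them are shown: those of the p53 targets Ccng1 and Cdkn1a, and those of Cdkn2d and Cdkn2c, the members with the highest ratios below. The sequences came from the RefSeq promoter table (build GRCm38.p6). It held 13 windows for the 10 members, each of 300 bases, of which 250 lie before the start. The 250 bases before the start are printed 5′ to 3′ on the strand of the gene. Capitals mark the p53 decamer, the 10-base unit of which a p53 response element holds a pair, in Ccng1 (chr11:40755287-40755536, minus strand), Cdkn1a (upstream start, chr17:29090729-29090978, plus strand) and Cdkn2d (chr9:21291210-21291459, minus strand). In Cdkn2c (chr4:109666757-109667006, minus strand) capitals mark the GC box GGGCGG.
Ccng1: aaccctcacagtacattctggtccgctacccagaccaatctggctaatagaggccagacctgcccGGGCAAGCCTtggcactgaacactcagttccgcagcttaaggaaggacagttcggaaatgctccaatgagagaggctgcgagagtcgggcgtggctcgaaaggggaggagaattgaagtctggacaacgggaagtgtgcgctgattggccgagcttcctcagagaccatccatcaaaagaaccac
Cdkn1a: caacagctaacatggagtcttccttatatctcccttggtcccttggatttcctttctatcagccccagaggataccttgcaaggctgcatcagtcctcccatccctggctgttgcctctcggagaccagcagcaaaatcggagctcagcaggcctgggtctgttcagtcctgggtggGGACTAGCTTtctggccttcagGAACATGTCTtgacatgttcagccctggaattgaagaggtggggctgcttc
Cdkn2d: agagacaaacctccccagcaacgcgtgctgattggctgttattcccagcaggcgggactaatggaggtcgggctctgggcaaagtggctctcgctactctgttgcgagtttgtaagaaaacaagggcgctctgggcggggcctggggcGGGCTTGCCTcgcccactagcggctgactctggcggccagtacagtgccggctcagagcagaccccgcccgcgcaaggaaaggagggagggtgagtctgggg
Cdkn2c: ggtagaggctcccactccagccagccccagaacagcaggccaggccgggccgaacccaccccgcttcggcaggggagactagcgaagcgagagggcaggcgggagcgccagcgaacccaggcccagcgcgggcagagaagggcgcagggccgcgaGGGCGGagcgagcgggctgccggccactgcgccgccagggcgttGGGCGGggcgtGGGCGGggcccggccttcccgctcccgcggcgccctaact

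A p53 decamer on either strand was found in 5 of the 13 windows (of Trp53, Mdm2, Ccng1, Cdkn1a and Cdkn2d), against 8.36% of the 32851 promoter windows in the table. The upstream start of Cdkn1a held 2 decamers that match the pattern exactly, from 73 and 51 bases before the start. They lie 12 bases apart and were counted as a full site, for which a spacer of at most 13 bases was allowed. Such a pair of exact matches was in 0.0731% of all windows. Directly after the decamer at 51 bases, with no spacer, come the bases tgacatgttc, which depart from the pattern at 1 base. Only exact matches were counted, so these bases are not in capitals. Which pair p53 binds cannot be told from this search. The GC box was in 9 of the 13 windows and 35.7% of all windows, and CCAAT in 7 of 13 and 37.4%. An E2F motif (TTTCCCGC, TTTGGCGC, TTTCGCGC or TTTGCCGC) was in 1 window, of Cdkn2a, and in 2.26% of all windows, and TATAAA was in 1, of Trp53, and in 13.6%. Motifs were searched on both strands and may overlap, and longer windows and introns were not searched. A match describes the letters of the window, and no match says nothing about the factor.

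The totals ran from 3453708 to 5690184 counts per cell, and all levels are given as CPM, counts per 1000000 counts of the cell. CPM is a share of the reads of a cell, and the amount of RNA per cell was not measured. A count of 0 allows up to 3 counts as a one-sided limit, or 0.527 to 0.869 CPM depending on the cell. Intervals in brackets and in the plot of the INK4 genes are exact 95% Poisson intervals, which cover counting error only, since reads without molecular identifiers are not independent molecules. They cover both sides, so at a count of 0 they reach higher than that limit, to 1.07 CPM for Cdkn1b in cell 1. Fibroblast markers were counted in each cell (233 to 6767 CPM in sum), 7 of 10 cardiomyocyte markers had no counts, and Y-linked genes had counts in all cells (9.76 to 267 CPM in sum) although the hearts were labelled female. Cells 3, 10, 11 and 12 stood apart by marker sums. The endothelial sum was 7565 CPM in cell 10, with Cldn5 and Vwf at 0, while no other cell exceeded 47.4 CPM. Mural markers summed to 3779 CPM in cell 11, against 208 CPM in the next cell, and haematopoietic markers to no more than 160 CPM, in cell 3. Cell 12 had the highest fibroblast sum. No doublet caller was run, since the cells were picked by hand.

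The question was whether the inhibitors and p53 targets are low in the cells with high levels of proliferation genes. Only mRNA was read, so cells with low levels are not shown to have stopped dividing. The summed CPM of Mki67, Top2a and Cdk1 fell into separate ranges. It was 6.86 in cell 3, 12.1 in cell 11, 24.9 in cell 7, 60.6 in cell 10, 111 in cell 4, 135 in cell 6 and 162 in cell 12. Then came cell 2 at 671, cell 1 at 1014, cell 5 at 1376, cell 8 at 1636 and cell 9 at 2059. The widest gap lay between cell 12 and cell 2, at 2.04 on the log2 scale, and the 5 cells above it (1, 2, 5, 8 and 9) are called high cells below. The same 5 cells stood above the widest gap of Mki67, Top2a or Cdk1 alone when at least 3 cells had to lie on each side, a condition that the summed level met without being held to it. Because the cells fall into 2 ranges, no correlation with the sum is given over all 12.

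The differences below are the log2 ratio of the median of CPM + 1 in the 5 high cells to that in the other 7, so values for low genes are drawn toward 0. Of the 10 members, 9 passed the level filter of a mean of at least 5 CPM and a count in at least 3 cells. Of these 9, 2 were at least 2-fold higher in the high cells (Cdkn2c and Cdkn2d), 2 were at least 2-fold lower (Cdkn2b and Cdkn2a), and 5 lay between. Of the 9701 genes that passed the filter, 11.1% were at least 2-fold higher and 6.75% at least 2-fold lower. The high and the other cells did not overlap for 1 member, Cdkn2c, which was higher. Cdkn2c passed the level filter through the high cells, where its mean was 23.6 CPM against 4.08 CPM in the others. Among all genes tested, 1.94% were higher and 0.155% lower without overlap. The median difference over all tested genes was 0.08, and the middle 90% lay between -1.16 and 1.71. Among the INK4 genes, Cdkn2b lay below and Cdkn2c and Cdkn2d above the middle 90%, while Cdkn2a lay within it. No p53 target among the members, Cdkn1a included, was 2-fold lower in the high cells. The other Cip/Kip member, Cdkn1b, did not pass the level filter, so nothing is said of it here.

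**Figure D1:**
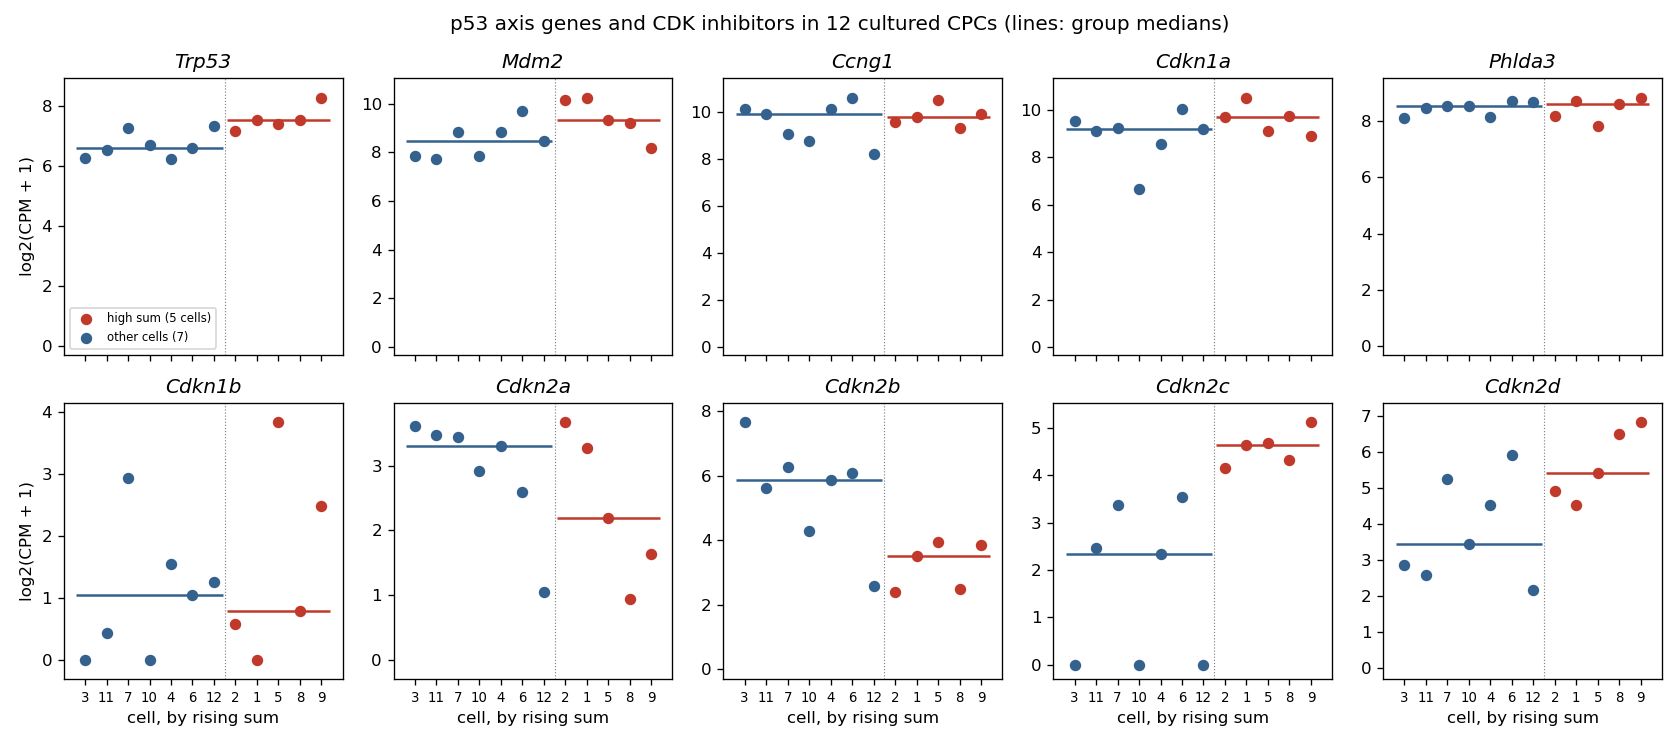
Level of each of the 10 members, as log2(CPM + 1), in each of the 12 cells, which are ordered by the summed CPM of Mki67, Top2a and Cdk1. Red points are the 5 high cells, blue points the other 7, and horizontal lines the group medians. Cdkn2c is the gene with no overlap, and Cdkn2b is low in every high cell and in cell 12.

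**Figure D2:**
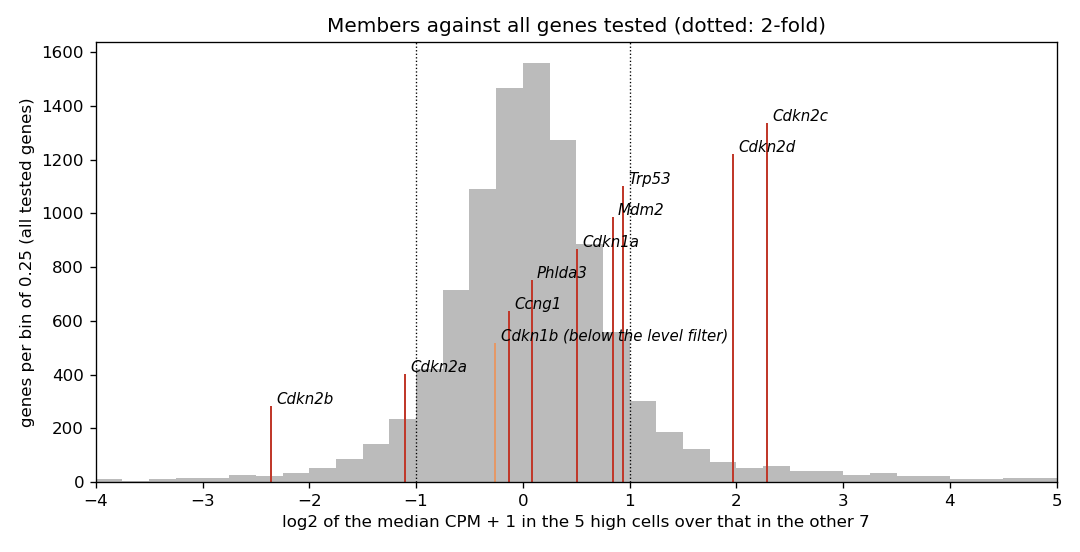
Histogram of the log2 ratio of medians, high cells over the others, for the 9701 genes tested, with the members as vertical lines whose height carries no value. Dotted lines mark 2-fold. Cdkn2c at 2.29 and Cdkn2d at 1.97 lie far right and Cdkn2b at -2.36 far left. The p53 targets lie between the dotted lines, from -0.13 for Ccng1 to 0.84 for Mdm2.

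Trp53, the gene of p53 itself (chromosome 11, 69580359 to 69591873, plus strand, mm10), was counted in all 12 cells, with 289 to 1470 counts. In the high cells it was at 184 CPM in cell 1, 145 in cell 2, 168 in cell 5, 187 in cell 8 and 308 in cell 9. In the other cells it was at 76.2 CPM in cell 3, 75.3 in cell 4, 95.6 in cell 6, 155 in cell 7, 104 in cell 10, 91.8 in cell 11 and 161 in cell 12. Only cells 7 and 12 of the 7 reached the lowest high cell, and cell 9 had the highest level of all. The median was 184 CPM against 95.6 CPM, a difference of 0.94, just short of 2-fold. On DESeq2 size factors and on TMM scaling it passed 2-fold, and without cell 2 the groups did not overlap.

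Mdm2 (chromosome 10, 117688875 to 117710758, minus strand), the inhibitor and target of p53, was at 1187 CPM in cell 1, 1128 in cell 2, 639 in cell 5, 584 in cell 8 and 286 in cell 9. In the other cells it was at 232 CPM in cell 3, 459 in cell 4, 835 in cell 6, 456 in cell 7, 228 in cell 10, 212 in cell 11 and 356 in cell 12. Cells 1 and 2 were highest, yet cell 9, with the highest proliferation sum and the highest Trp53, had less Mdm2 than 4 of the other 7 cells. The medians were 639 and 356 CPM, a difference of 0.84. The value ranged widely with the choice of cells, from 0.48 without cells 3, 10, 11 and 12 to 1.66 without cells 8 and 9, whose sums are farthest from the median, and it passed 2-fold without any 1 of cells 4 to 9.

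Ccng1 (chromosome 11, 40748552 to 40755311, minus strand), which codes for cyclin G1, a p53-induced partner of a phosphatase, was the member with the highest median level. It was at 886 CPM in cell 1, 761 in cell 2, 1481 in cell 5, 641 in cell 8 and 974 in cell 9. The other cells held 1110 CPM (cell 3), 1116 (cell 4), 1540 (cell 6), 543 (cell 7), 442 (cell 10), 970 (cell 11) and 298 (cell 12). All 5 high cells lay within the range of the others. The medians of 886 and 970 CPM differed by -0.13, and the sign of this difference turned with the alternatives, which ran from -0.34 to 0.30.

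Cdkn1a (chromosome 17, 29090976 to 29100727, plus strand), which codes for p21, the main p53 target that stops the cycle, was counted at 540 to 4939 reads per cell. In the high cells it was at 1430 CPM in cell 1, 833 in cell 2, 551 in cell 5, 846 in cell 8 and 476 in cell 9. In the other cells it was at 729 CPM in cell 3, 371 in cell 4, 1050 in cell 6, 601 in cell 7, 101 in cell 10, 557 in cell 11 and 584 in cell 12. The highest level of all was in a high cell, and the lowest, in cell 10, was 14.1-fold lower. Cell 10 is also the cell with 7565 CPM of endothelial markers, whose part in its Cdkn1a level was not tested. The medians were 833 and 584 CPM, a difference of 0.51, and without the 5 cells with fewest genes detected (7, 8, 10, 11 and 12) the difference was -0.07. An antisense gene overlaps Cdkn1a in the annotation, and the strand rule of the counting is not given in the sources used here, so reads of the pair cannot be told apart. Its upstream start is the one with the pair of exact p53 decamers printed above.

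Phlda3 (chromosome 1, 135766119 to 135769136, plus strand), a p53 target that restrains Akt signalling, varied least. It was at 418 CPM in cell 1, 285 in cell 2, 223 in cell 5, 389 in cell 8 and 447 in cell 9, and at 272 to 421 CPM in the other 7 cells with a median of 367. The highest cell held 2.01-fold the level of the lowest. The coefficient of variation over the 12 cells, 0.202, was at percentile 0.917 of all tested genes, and at percentile 5.47 among the 201 genes nearest in mean level. The difference between the medians was 0.08, against 0.94 for Trp53 and 0.84 for Mdm2.

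The 4 p53 targets Mdm2, Ccng1, Cdkn1a and Phlda3 together reached 2182 to 3921 CPM in the high cells and 1138 to 3845 CPM in the others, with medians of 2894 and 2088 CPM. None of them was 2-fold different. All 4 were counted at no fewer than 540 reads in each cell, so none was absent from any cell, whether its proliferation sum was high or low.

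Cdkn1b (chromosome 6, 134920401 to 134925513, plus strand), the gene of p27, was barely detected. It had 0 counts in cells 1, 3 and 10, which allows up to 0.869, 0.791 and 0.563 CPM. It had 2 to 8 counts in 6 cells, and 22, 35 and 67 counts in cells 9, 7 and 5, or 4.61 CPM (2.89 to 6.98), 6.66 CPM (4.64 to 9.26) and 13.3 CPM (10.3 to 16.9). High and low values occurred in both ranges of cells. The gene fell short of the level filter with a mean of 2.55 CPM, and its difference of -0.26 rests on medians of about 1 CPM. With 152 reads in all 12 cells, no difference was readable at this depth.

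Cdkn2b (chromosome 4, 89306299 to 89311039, minus strand), the gene of p15, had the widest spread of the members counted in all cells. In the high cells it was at 10.4 CPM in cell 1 (7.30 to 14.4), 4.20 in cell 2 (2.45 to 6.72), 14.5 in cell 5 (11.4 to 18.3), 4.55 in cell 8 (2.94 to 6.71) and 13.4 in cell 9 (10.3 to 17.1). In the other cells it was at 199.6 CPM in cell 3, 57.8 in cell 4, 66.9 in cell 6, 76.3 in cell 7, 18.4 in cell 10 (14.9 to 22.4), 48.0 in cell 11 and 4.92 in cell 12 (3.27 to 7.11). Cell 12 alone of the 7 lay within the range of the high cells. The medians were 10.4 and 57.8 CPM, a log2 difference of -2.36 between medians of CPM + 1.

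Cell 12 had the highest proliferation sum below the gap, at 162 CPM, but 3087 CPM over 14 DNA replication genes, which was 14.7 times its sum over the 7 proliferation genes that the study names. The replication sum was 1510 to 4624 CPM in the high cells and at most 832 CPM in the other 6. With the 6 cells of highest proliferation sum set against the remaining 6, cell 12 joined the high side, and the replication sum split the cells in the same way. Cdkn2b then had no overlap, with at most 14.5 CPM on one side and at least 18.4 CPM on the other, and a difference of -2.87. These bounds are those of cells 5 and 10, whose counting intervals overlap. Cdkn2c then overlapped, since cell 12 had no counts of it. In this split 0.196% of all tested genes were lower and 1.81% higher without overlap. The split by replication was chosen after seeing the data.

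Cdkn2a (chromosome 4, 89274471 to 89294653, minus strand) lies 11645 bases from Cdkn2b, and its counts cannot separate the transcripts of p16 and p19Arf. It was low in every cell, with 5 to 56 counts. In the high cells it was at 8.69 CPM in cell 1 (5.86 to 12.4), 11.9 in cell 2 (8.74 to 15.7), 3.58 in cell 5 (2.12 to 5.66), 0.909 in cell 8 (0.295 to 2.12) and 2.10 in cell 9 (1.01 to 3.86). In the others it was at 11.3 CPM in cell 3, 8.87 in cell 4, 5.05 in cell 6, 9.89 in cell 7, 6.57 in cell 10, 10.1 in cell 11 and 1.05 in cell 12 (0.387 to 2.30). The lowest levels were in cells 8, 12 and 9, and cell 2, a high cell, had the highest. The medians of 3.58 and 8.87 CPM gave a difference of -1.11. The 2-fold call was lost on leaving out 1 cell: the difference was -0.47 without cell 8 or cell 9, -0.63 without cell 5 and -0.93 without cell 3, 7 or 11. Within the 7 cells below the gap, Cdkn2a ran against the proliferation sum (Spearman's rho of -0.96, Pearson's r of -0.71 on the log2 scale). This is the most extreme of the 10 members over 7 cells, where rho was 0.71 for Phlda3, 0.57 for Mdm2, -0.57 for Cdkn2b and between -0.11 and 0.43 for the other 6.

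Cdkn2c (chromosome 4, 109660876 to 109667189, minus strand), the gene of p18, went the other way. In the high cells it was at 23.7 CPM in cell 1 (18.9 to 29.5), 16.8 in cell 2, 24.7 in cell 5 (20.5 to 29.4), 19.1 in cell 8 (15.6 to 23.1) and 33.8 in cell 9 (28.7 to 39.4). In the others it had no counts in cells 3, 10 and 12, and was at 4.07 CPM in cell 4, 10.6 in cell 6 (7.59 to 14.5), 9.32 in cell 7 (6.89 to 12.3) and 4.51 in cell 11. Every high cell was above every other cell, although the counting intervals of cells 2 and 6 overlap. The medians of 23.7 and 4.07 CPM gave a difference of 2.29, which was 2.14 to 3.03 on leaving out each cell, the upper value without cell 6, 7 or 11. All 4 cells that stood apart by marker sums (3, 10, 11 and 12) were below the gap, and 3 of them had no Cdkn2c counts. Without these 4 cells, a setting chosen after seeing the data, the difference was 1.26 with no overlap, Cdkn2b was at -2.57, also with no overlap, and Cdkn2a at -1.11. With 5 cells against 3, 4.53% of all tested genes were higher and 2.13% lower without overlap. What the marker genes add to the differences was not tested. The sequence of its promoter window, printed above, held 4 GC boxes, of which 3 lie before the start.

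Cdkn2d (chromosome 9, 21288410 to 21291407, minus strand), the gene of the INK4 protein p19, was at 22.3 CPM in cell 1, 29.6 in cell 2, 41.8 in cell 5, 90.0 in cell 8 and 113 in cell 9. The other cells held 6.33 CPM (cell 3), 22.3 (cell 4), 60.3 (cell 6), 37.7 (cell 7), 9.95 (cell 10), 5.05 (cell 11) and 3.51 (cell 12). Its promoter window holds a p53 decamer, as printed above. Cells 8 and 9, with the highest proliferation sums, were highest, but cells 6 and 7 lay inside the range of the high cells. The medians were 41.8 and 9.95 CPM, a difference of 1.97. This rested on few cells: it was 1.32 without cell 3, 11 or 12, 2.61 without cell 1 or 2, 0.88 without both cells 3 and 10, 0.15 without cells 3, 10, 11 and 12, and 0.66 without the 5 cells with fewest genes detected. Of those 5 cells, 4 were below the gap and 1 above it, and what the number of genes adds to the difference was not tested. Cdkn2b and Cdkn2c differed by -2.39 and 2.31 without the same 5 cells.

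**Figure D3:**
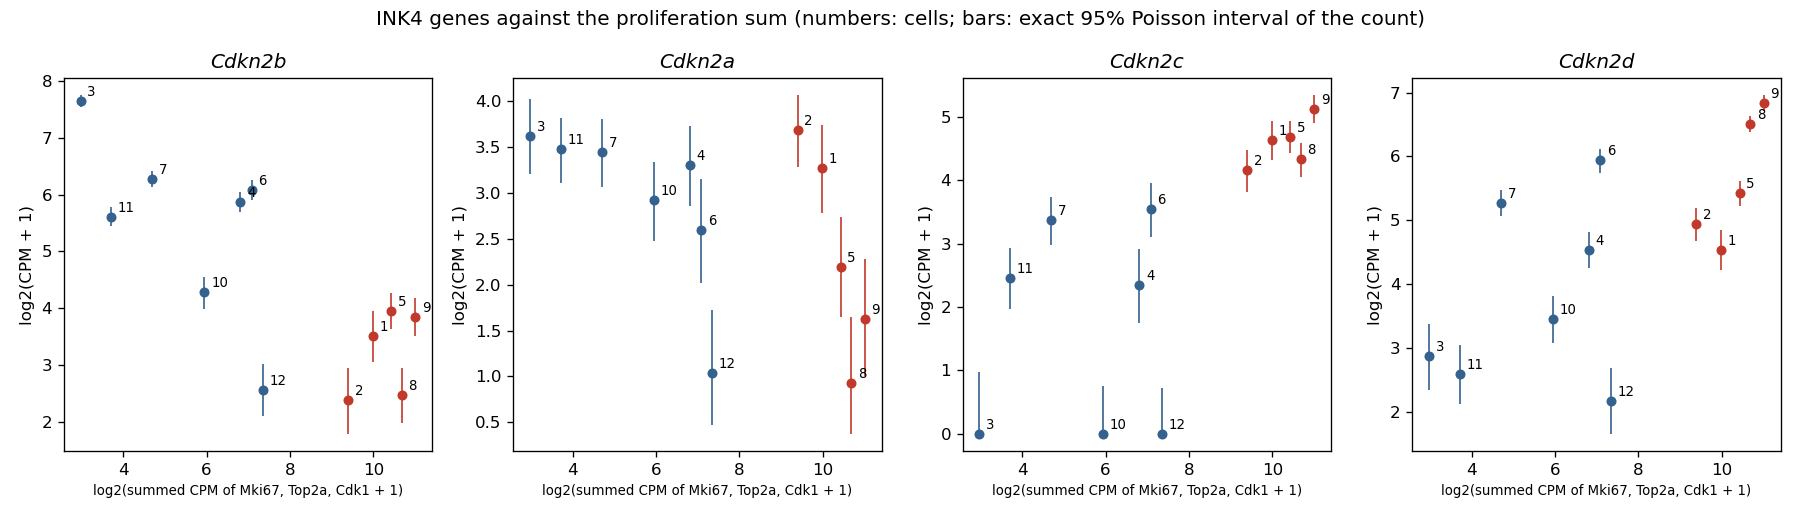
Level of the INK4 genes, as log2(CPM + 1), against the log2 of the summed CPM of Mki67, Top2a and Cdk1 plus 1, with cells numbered. Red points are the 5 high cells, blue points the other 7, and bars the exact 95% Poisson intervals of the counts. Cdkn2b is low in the high cells and cell 12, and Cdkn2c is at 16.8 CPM or more in the high cells and at most 10.6 CPM in the others.

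Within the high cells the members did not rank alike. Cells 1 and 2 had the highest Mdm2 and, with cell 8, the highest Cdkn1a, and replication sums of 4624 and 4539 CPM. Cells 5 and 9 had the lowest Cdkn1a and replication sums of 1510 and 2311 CPM. Per unit of the 7 proliferation genes that the study names, the replication sum was 4.22 and 5.07 in cells 1 and 2, 1.90 in cell 8, and 0.605 and 0.621 in cells 5 and 9. Cell 9 had the highest Trp53, Cdkn2c and Cdkn2d, and the lowest Mdm2, of the 5. The sum of the INK4 genes was 62.5 to 162 CPM in the high cells and 9.49 to 217 CPM in the others, with medians of 84.6 and 93.0 CPM, while Cdkn2b lay lower and Cdkn2c and Cdkn2d higher in the high cells.

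To compare levels between genes, CPM was divided by the kilobases of annotated exons (GENCODE vM21). The median level per kilobase was 264 for Ccng1, 237 for Phlda3, 167 for Cdkn1a, 89.9 for Mdm2 and 37.1 for Trp53. The INK4 genes followed with 16.5 for Cdkn2d, 11.8 for Cdkn2b, 6.51 for Cdkn2a and 3.71 for Cdkn2c, and Cdkn1b was last with 0.197. Some neighbours in this order could not be told apart. Ccng1 was above Phlda3 in 6 of 12 cells, Phlda3 above Cdkn1a in 7 and Cdkn2d above Cdkn2b in 5. Cdkn1a was above Mdm2, Mdm2 above Trp53 and Cdkn2b above Cdkn2a in 11 of 12 cells each.

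Other genes of the p53 pathway were read from lists of named genes. Of 40 other p53 targets, 39 were in the table and 37 passed the level filter. Of these, 6 were at least 2-fold higher in the high cells, 4 at least 2-fold lower and 27 between, with a median difference of 0.11 against 0.08 over all tested genes. The shares of 16.2% higher and 10.8% lower lie near the 11.1% and 6.75% of all tested genes. None was without overlap. Without cells 3, 10, 11 and 12, 3 were higher and 5 lower, where 10.8% of all tested genes were higher and 9.11% lower. The highest ratios were those of Ckap2, with medians of 291 CPM in the high and 15.1 CPM in the other cells, of Gtse1, with 126 and 17.6 CPM, and of Psrc1, with 79.3 and 28.3 CPM. All 3 code for proteins of the spindle or microtubules, and Gtse1 is also known to hold p53 back. The lowest ratios were those of Fas, a death receptor, at 21.1 against 94.5 CPM in the other cells, of the kinase gene Plk3, at 22.4 against 97.5 CPM, and of Sesn1, a stress-induced inhibitor of mTOR signalling, at 3.95 against 13.2 CPM. For Fas the ranges were 11.1 to 89.8 CPM and 41.7 to 167 CPM, and 4 of the 5 high cells lay below every other cell.

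**Figure D4:**
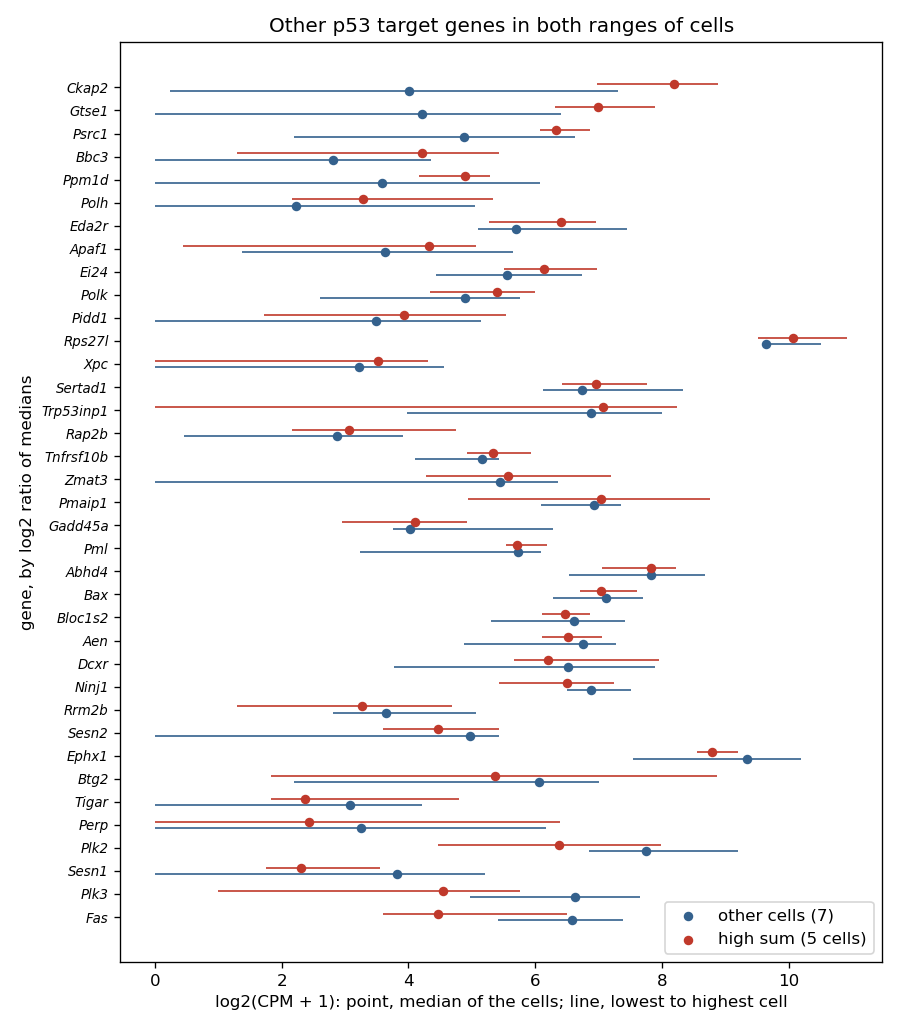
Levels of the 37 other p53 targets that passed the filter, as log2(CPM + 1), in the 5 high cells (red) and the other 7 (blue). Points are medians and lines run from the lowest to the highest cell, and genes are ordered by the ratio of medians. Most genes have medians close together, and no gene is free of overlap.

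Among 14 regulators of p53, 4 were at least 2-fold higher in the high cells, none lower and 10 between, with a median difference of 0.56. The share higher was 28.6%, against 11.1% of all tested genes, of which 6.75% were lower. With 14 genes the list is too short to be set apart by this share. Chek1, the kinase that acts when replication stalls, was at 21.5 to 38.8 CPM in the high cells and 0 to 19.5 CPM in the others, with no overlap. Of all tested genes, 1.94% were higher without overlap. Atm, the kinase that responds to DNA breaks, was at 14.8 against 0.879 CPM in the medians, but its highest level, 21.2 CPM, was in cell 10, below the gap. Chek2, a kinase that Atm activates, was at 28.5 against 8.70 CPM, with overlap. Mdm4, the relative of Mdm2 that also binds p53, was at 36.1 and 46.0 CPM. Of 4 other CDK inhibitor and pocket protein genes that passed, 3 were at least 2-fold higher: Rbl1 (33.6 against 1.33 CPM) and Rb1 (37.5 against 16.1 CPM), which code for pocket proteins that bind E2F, and Cdkn3, a phosphatase that acts on Cdk kinases (59.6 against 9.23 CPM). The ranges of all 3 overlapped. Against 11.1% of all tested genes this share is high, but 4 genes are too few to set the list apart. Cdkn1c, the third Cip/Kip gene, had no counts in any cell.

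Of 13 genes of G1 cyclins, their kinases and E2F factors, 4 were at least 2-fold higher (30.8%, against 11.1% of all tested genes), 1 lower (7.69%, against 6.75%) and 8 between. Here, too, 13 genes are too few to set the list apart. Cks1b, which codes for a small subunit of Cdk complexes, was the gene without overlap. It was at 429 to 627 CPM in the high cells and 49.8 to 283 CPM in the others. Among all tested genes, 1.94% were higher without overlap. Ccne1, which codes for cyclin E1, was at 616 CPM in cell 1, 489 in cell 2 and 304 in cell 8, but at 46.5 in cell 9 and 6.37 in cell 5, below all of the 7 cells under the gap. Cyclin E drives entry into S phase. Cdk2, its kinase, was at 36.5 against 5.58 CPM in the medians, and Ccne2 at 15.7 against 0.791 CPM, both with overlap. Myc, a growth-promoting factor, was lower in the medians, at 18.2 against 45.7 CPM, yet highest in cell 8, a high cell, at 309 CPM. Ccnd1, which codes for cyclin D1, the partner of the kinases that INK4 proteins bind, was at 932 and 892 CPM, and Cdk4 at 560 and 431 CPM. Cks1b, Ccnd1 and Cdk4 were picked after their values were seen.

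Of 6 regulators of the Cdkn2a and Cdkn2b locus that passed, 1 was at least 2-fold higher (16.7%, against 11.1% of all tested genes) and none lower. This was Ezh2, the methyltransferase of the Polycomb complex that silences the locus. It was at 91.5 to 162 CPM in the high cells and 0 to 57.8 CPM in the others, with no overlap. Among all tested genes, 1.94% were higher without overlap. Bmi1, another Polycomb gene, was at 90.9 and 97.0 CPM. Of 12 senescence-associated genes, 3 were at least 2-fold higher, 2 lower and 7 between, against 11.1% higher and 6.75% lower of all tested genes, so 12 genes are too few to set the list apart. Il6 and Ccl2, secreted inflammatory factors, were the lower ones, at 66.7 against 180 CPM and 15.1 against 107 CPM in the medians. Ccl2 reached 1198 CPM in a high cell and 1818 CPM in another cell, so its ranges overlapped almost fully. The higher ones were Plaur (285 against 121 CPM), Lmnb1, a nuclear lamina gene that is known to be lost in senescence (20.4 against 8.15 CPM), and Igfbp3, which was at 3.45 against 0 CPM in the medians but at 4.86 against 13.7 CPM in the means, its highest cells being 7 and 10.

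How the members varied together was measured as Pearson's r of log2(CPM + 1) over the 12 cells, which share a cell type label and passage and differ in depth. The 47049850 pairs of tested genes had a median r of 0.03, with the middle 90% between -0.51 and 0.57. The 45 pairs of members had a median of 0.16, with 5 pairs above and 2 below that range. The highest was Cdkn2c with Cdkn2d, at 0.83, followed by Mdm2 with Cdkn1a at 0.64, Mdm2 with Cdkn2c at 0.63, Trp53 with Cdkn2c at 0.61 and Cdkn2a with Cdkn2b, neighbours on chromosome 4, at 0.57. The lowest were Trp53 with Cdkn2b, at -0.67, and Trp53 with Cdkn2a, at -0.58.

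Part of this follows the split of the cells. After the means of the 5 high and of the other 7 cells were removed, Cdkn2c with Cdkn2d stayed at 0.71, Mdm2 with Cdkn1a at 0.56 and Cdkn2a with Cdkn2b at 0.53, whereas Trp53 with Cdkn2c was at 0.09. Ccng1 with Cdkn2b was at 0.79, against 0.44 over all cells, which was 0.29 without cell 12. Trp53 and Mdm2 gave 0.26 over all cells and -0.27 within the groups, and the former was 0.13 without cell 3 and 0.54 without cell 9. The 4 p53 targets did not vary as a block, since their 6 pairs had a median of 0.17 over all cells and 0.15 within the groups, and Ccng1 with Phlda3 was at -0.40 in both, although it was -0.21 without cell 5 and -0.59 without cell 6.

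**Figure D5:**
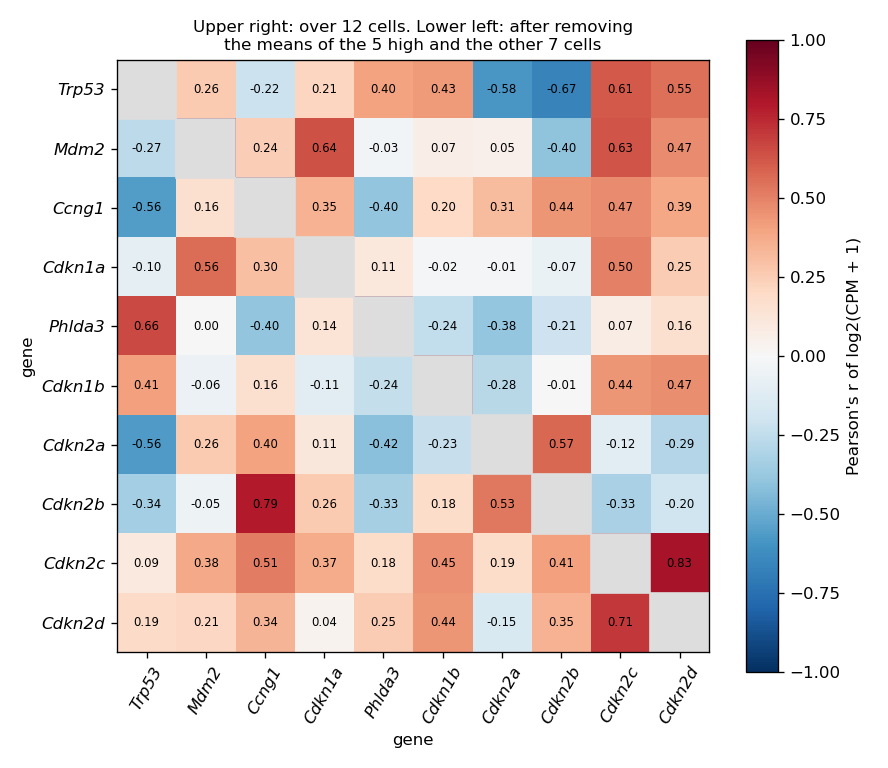
Pearson's r of log2(CPM + 1) for each pair of members, over the 12 cells in the upper right and after removal of the means of the 5 high and the other 7 cells in the lower left. Red is positive and blue negative. Cdkn2c with Cdkn2d is at 0.83 and 0.71, and Trp53 with Mdm2 at 0.26 and -0.27.

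The genes whose levels ran most like each member were found by the same r over 12 cells, among the other 9700 tested genes for the 9 members that passed the level filter and among all 9701 for Cdkn1b. For Trp53 they were Abcf2, Wdr46 and Rnps1, at 0.89 to 0.91. For Mdm2 they were Ccdc82 at 0.88, Pidd1 at 0.86 and Donson at 0.85. Ccng1 ran with Col4a3bp, Cdc14b and Gria3 (0.91 to 0.93), Cdkn1a with Haus8, Tmem222 and Sap30l (0.88 to 0.89), and Phlda3 with Olfml2b and Twnk (0.87 and 0.85). Cdkn2a ran with Cdk7, Pla1a and Unc119 (0.84 to 0.88) and Cdkn2b with Fam32a, Orai3 and Ube2f (0.82 to 0.86). Cdkn2c ran with Slc25a10, Elof1 and Lin54 (0.89 to 0.94) and Cdkn2d with Kif20a, Pik3c3 and Itpripl1 (0.89 to 0.91). For Cdkn1b, which had few counts, they included Pogz and Kctd9 (0.87 and 0.84). Each set is the top of 9700 or 9701 genes over 12 cells, and every member reached values of 0.82 or more. No shared control is read from them.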

How the data were processed

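Messenger RNA of 12 single cells was read with the Smart-Seq v4 and Nextera XT kits. According to the submitters' processing notes and the methods, read pairs were aligned to mm10 with STAR 2.5.2b, and only unique alignments were used. The table that the authors deposited holds whole-number counts for each gene in each cell, without normalization. The counting program, annotation and strand rule are not given in the sources used here, so overlapping genes may share reads. No cell fell under the limits of the study (1000 genes, 10% mitochondrial counts), and depth limits genes near 3 counts.

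CPM was computed from the deposited counts. The level filter was a mean of 5 CPM and a count in 3 cells, the pseudocount 1 CPM, and the level of the exact Poisson intervals 0.95. Positions and exon lengths came from GENCODE vM21, of the same build, and all 10 symbols matched. The labels and headers name no batch, so no values within batches can be given. Named genes were the members, up to 3 genes of each list with the largest change in each direction, and the 3 genes most like each member, of which some are not reported here. Members and lists were chosen with earlier results of these data known. Other splits, scales (DESeq2 1.42.0 size factors, edgeR 4.0.16 TMM), pseudocounts, filters and left-out cells were tried, and the steps were tested on simulated data. The software was R 4.3.3 and Python 3.11.15 with pandas 2.3.3, numpy 2.4.6, matplotlib 3.10.9 and scipy 1.17.1.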

Additional observations from a re-analysis of the deposited data

How the results depend on the processing

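No test was made, so these are changes of values and counts. Of 160 values of single members under 16 settings other than leaving out 1 cell, 157 moved by less than 1 SD over the cells, and of 120 values without 1 cell all 120 did, which shows little for genes with a wide spread. Without cells 8 and 9, whose sums lie farthest from the median, Cdkn2a was at -0.03 and Phlda3 at -0.37, and without cells 3, 10, 11 and 12 Cdkn2d was at 0.15. The members at least 2-fold higher numbered 4 at a limit of 1.5-fold and 1 without cells 3 and 10 and also without cells 3, 10, 11 and 12, which was added after seeing the data (2 to 3 without each cell in turn). The members at least 2-fold lower numbered 1 when the split used the 7 proliferation genes of the study, at equal depth, with a pseudocount of 5 CPM, at a limit of 3-fold, without cells 8 and 9, and without the 5 cells with fewest genes, which was added after seeing the data (1 to 2 without each cell). Cdkn2a was the member lost. Among all tested genes, 22.3% were higher at 1.5-fold, 10.7% without cells 3 and 10 and 10.8% without cells 3, 10, 11 and 12. At the settings named for lower members, the share lower ran from 2.54% at 3-fold to 7.51% with the 7 genes. Without each cell in turn, 10.2% to 12.7% were higher and 5.52% to 7.85% lower. Members without overlap numbered 0 when cells from 100 CPM upward or the 7 genes set the split, 3 (Trp53, Cdkn2b and Cdkn2c) without those 5 cells, 2 (Cdkn2b and Cdkn2c) without cells 3, 10, 11 and 12, and 1 to 2 without each cell, where Trp53 joined without cell 2 and Cdkn2b without cell 12. Smaller groups overlap less often by construction: of all tested genes, 7.12% were higher and 2.55% lower without overlap when those 5 cells were left out, 4.53% and 2.13% without cells 3, 10, 11 and 12, 2.37% and 0.331% without cell 2, and 3.18% and 0.371% without cell 12. The other p53 targets at least 2-fold higher numbered 2 at 3-fold, 3 without cells 3, 10, 11 and 12 and 11 without cells 8 and 9 (4 to 8 without each cell), and those lower 7 at 1.5-fold and 2 at 3-fold (3 to 6). Other limits of fold move these counts by construction, and otherwise the cause was not tested. Among all tested genes, 5.61% were higher at 3-fold, 10.8% without cells 3, 10, 11 and 12 and 12.2% without cells 8 and 9. The shares lower were 15.5% at 1.5-fold and 2.54% at 3-fold. At 10 CPM or more 5 members were detected in all 12 cells. Cdkn2b stayed between -2.87 and -2.02 and Cdkn2c between 1.26 and 2.54 under the settings other than leaving out 1 cell. The median shift over all tested genes was 0.08 in CPM, 0.01 on size factors and 0.03 on TMM. The median r of the 4 targets ran from -0.02 to 0.21 under the settings other than leaving out 1 cell, and from 0.08 to 0.25 without each cell. The number of cells, 12, limits each of these values, and Cdkn1b, Cdkn2a and Cdkn2c are limited by counts as well.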
